A study of Mus musculus with 22 samples.

Results

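Stromal matrix genes varied widely among 13 Eμ-Myc lymphomas, and the arrays at both ends of that variation are compared here. The lymphomas were selected on 3 measured genes: Col1a2, Col3a1 and Sparc. Expression was measured on Affymetrix MOE430A arrays, 1 per sample, and the log2 intensities of these genes were averaged on each array. The 6 arrays with the highest average were set against the 6 with the lowest, and the middle array was left out, so that 12 of the 13 lymphoma arrays and 12 of all 22 arrays of the series were compared. Eμ-Myc mice carry a Myc transgene driven by the immunoglobulin heavy chain enhancer, which is active in B lineage cells, and all 13 lymphomas share it. Each lymphoma came from a separate mouse on the C57Bl/6 background. The other arrays, which served as background, were 4 of wild type B220+ B cells and 5 of premalignant Eμ-Myc B220+ B cells (B220 is a surface marker of the B lineage), from littermates of 4 to 6 weeks. Per the labels, B cells came from spleen or bone marrow and were isolated with B220 or IgM beads. No surface marker is named for the lymphomas, and no label assigns a tissue to a single array. Cd79a, a chain of the B cell receptor, was high on both sides, at 10.75 to 12.08 log2 on the 6 arrays with the highest average and 11.03 to 11.93 on the 6 with the lowest.

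The working name for the arrays with the highest average was stroma-rich, and the data bear it out only in part. Other collagen genes varied with the 3 ordering genes. The fibroblast markers gave no single direction. Of 28 listed, 19 were below log2 4 on all 13 lymphomas. The 3 that passed the filter on dim probe sets had lower means on the side with more collagen transcript, and Gsn, 1 of these, was as high in wild type B cells. Without the filter, 3 of the 28 had an unadjusted p under 0.05 with the higher mean and 1 with the lower. Pdgfrb, chosen after its values were seen, was detected on 3 arrays of the side with more collagen only. The sides are called collagen-high and collagen-low below, after what was measured.

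Collagens are triple-helical proteins of the extracellular matrix. Col1a2 encodes a chain of type I collagen, which makes the main fibrils of connective tissue. Col3a1 encodes type III collagen, the collagen of the reticular fibres that form the meshwork of lymphoid organs. Sparc encodes a secreted protein that binds collagen and calcium. These genes are made chiefly by fibroblasts and related mesenchymal cells, and type IV collagen, in basement membranes, is also made by endothelium.

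The sequence just upstream of the transcript start is shown for the 3 ordering genes and for Col5a1, a type V collagen gene that varied with them, so that genes that varied together can be compared by sequence. Each is 250 bases from RefSeq on build GRCm38.p6, written 5′ to 3′ on the gene's strand. They lie at chr6:4505368-4505617 (+ strand) for Col1a2, chr1:45311288-45311537 (+ strand) for Col3a1, chr11:55420081-55420330 (- strand) for Sparc and chr2:27886175-27886424 (+ strand) for Col5a1. Capitals mark each match, on either strand, to the TATA box core TATAAA, the pentamer CCAAT and the Sp1-type GC box GGGCGG, and no matches overlap.
Col1a2: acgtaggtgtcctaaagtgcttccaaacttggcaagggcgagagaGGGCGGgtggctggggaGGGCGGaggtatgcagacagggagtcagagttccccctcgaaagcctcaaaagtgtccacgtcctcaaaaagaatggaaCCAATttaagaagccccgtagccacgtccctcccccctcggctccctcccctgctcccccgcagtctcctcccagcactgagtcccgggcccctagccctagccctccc
Col3a1: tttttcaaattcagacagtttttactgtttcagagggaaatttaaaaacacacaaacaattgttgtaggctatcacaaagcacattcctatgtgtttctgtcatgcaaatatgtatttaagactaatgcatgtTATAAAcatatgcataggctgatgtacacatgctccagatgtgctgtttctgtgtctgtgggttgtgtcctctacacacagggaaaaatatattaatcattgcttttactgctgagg
Sparc: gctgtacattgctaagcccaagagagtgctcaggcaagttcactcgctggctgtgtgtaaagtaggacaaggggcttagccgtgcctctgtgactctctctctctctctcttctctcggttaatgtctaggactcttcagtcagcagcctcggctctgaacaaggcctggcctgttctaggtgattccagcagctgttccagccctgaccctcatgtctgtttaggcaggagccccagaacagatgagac
Col5a1: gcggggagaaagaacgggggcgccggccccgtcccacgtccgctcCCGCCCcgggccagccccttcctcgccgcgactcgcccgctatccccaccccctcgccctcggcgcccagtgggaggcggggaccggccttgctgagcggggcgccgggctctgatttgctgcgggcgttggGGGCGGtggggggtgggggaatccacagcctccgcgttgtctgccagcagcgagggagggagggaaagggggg
The Col1a2 window held CCAAT beginning 109 bases before the start, and GGGCGG beginning at 205 and 188 bases. The Col3a1 window held TATAAA at 117 bases, the Sparc window held no match, and the Col5a1 window held GGGCGG at 73 bases and, on the opposite strand, at 205 bases. Over 32851 windows of the same length, 12.4% held TATAAA, 33.8% held CCAAT and 32.7% held GGGCGG. No motif was found in all 4 windows, and a match is a description of the letters only.

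The 3 ordering genes formed a graded series across the lymphomas. On the collagen-high side Col1a2 lay between 7.56 and 9.94 log2 with a median of 8.94, against 5.46 to 7.53 and a median of 6.73 on the collagen-low side. Col3a1 spanned 7.62 to 10.78 with a median of 9.95 against 5.20 to 7.35 with a median of 6.91, and Sparc 8.05 to 9.36 with a median of 8.59 against 5.83 to 7.89 with a median of 7.22. The sides did not overlap for any of the 3, which follows from how they were chosen. The ratio of the sides' means was 4.59 for Col1a2, 7.53 for Col3a1 and 2.82 for Sparc, given without a test. The average of the 3 genes was 10.03 for lymphoma replicate 1, 9.59 for replicate 11, 9.51 for replicate 5, 8.86 for replicate 12 and 8.19 for replicate 2. At the border it was 7.86 for replicate 6, the last array inside the collagen-high side, 7.81 for replicate 9, the middle array, and 7.44 for replicate 10, the first inside the collagen-low side. It was 7.19, 6.81, 6.77, 6.60 and 6.02 for replicates 7, 8, 4, 3 and 13. The step across the border was thus much smaller than the distance from end to end. The average stayed between 2.98 and 3.32 on the wild type arrays and between 2.94 and 3.13 on the premalignant arrays, so that even the collagen-low lymphomas were far above the wild type and premalignant B cells in these genes. In a bulk sample, fewer collagen-producing cells and less collagen RNA per cell cannot be told apart.

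**Figure D1:**
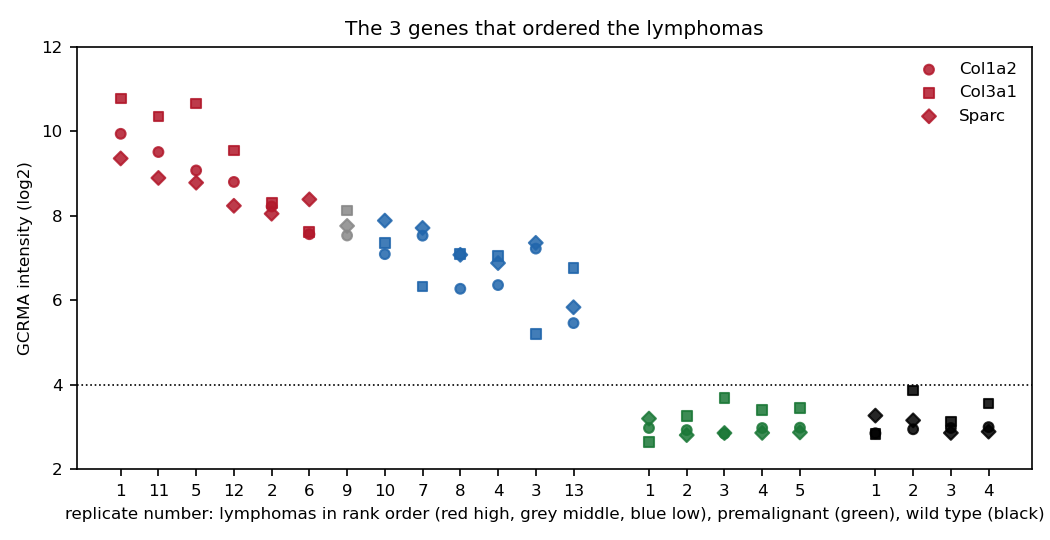
Log2 GCRMA intensity (vertical axis) of Col1a2, Col3a1 and Sparc on each of the 22 arrays (horizontal axis), with the lymphomas in rank order and one marker shape per gene. Lymphoma averages run from 10.03 down to 6.02 without a break at the border (7.86, 7.81 and 7.44), and all premalignant and wild type values lie under the dotted line at log2 4.

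Across all other genes the comparison of the sides was weak. With limma, 0 of 6434 genes passed an adjusted p of 0.05, which is 0% of those tested, and the lowest adjusted p was 0.209. At an unadjusted p under 0.05 there were 427 genes. Of these, 275 had a higher mean on the collagen-high side (4.27% of the genes tested) and 152 a lower one (2.36%). The arrays of the sides did not overlap for 19 genes with higher values on the collagen-high side (0.295%) and 4 with lower values (0.0622%). The median difference over all genes was 0.03 log2, and 55.2% of the genes had the higher mean on the collagen-high side. The differences below are therefore given as values with 95% confidence intervals that are not adjusted, and none of them passed the test at this number of arrays unless another setting is named. The test concerns variation among tumours that were ordered by matrix genes, so other matrix genes are not independent of the ordering.

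The collagen genes had higher means on the collagen-high side. Of 24 other collagen genes on the array, 10 passed the filter on dim probe sets, 12 were below log2 4 on all lymphomas, and all 10 tested had the higher mean on the collagen-high side. Of these 10, 8 had an unadjusted p under 0.05 in that direction, beside 4.27% of all genes, and 3 had sides that did not overlap, beside 0.295%. The median difference of the 10 was 1.10 log2, against 0.03 over all genes. A gene that passes the filter only through the arrays where it is high had to differ, and Col5a1 and Col6a3 passed only through the collagen-high arrays. Col16a1 needed arrays of both sides to pass. Without the filter, 11 of the 24 had an unadjusted p under 0.05 with the higher mean and 1 with the lower. Averaged over the 10 genes, the log2 level was 5.26 to 5.99 on the collagen-high arrays, 4.26 to 5.10 on the collagen-low arrays and 3.26 to 3.45 on wild type arrays.

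Type V collagen, which is built into type I fibrils and helps to start them, varied most closely with the ordering genes. Col5a2 was at 8.05, 6.86, 6.87, 6.23, 5.34 and 4.53 log2 on collagen-high replicates 1, 11, 5, 12, 2 and 6. It was at 4.07, 4.45, 4.10, 3.04, 3.87 and 2.90 on collagen-low replicates 10, 7, 8, 4, 3 and 13. Every collagen-high array was above every collagen-low array, and the order along the high side nearly repeated that of the ordering genes. The difference was 2.58 log2 (95% interval 1.47 to 3.68), at least 4.97-fold, with an adjusted p of 0.302 by limma. Here and below, a mean under log2 4 was set to that level before the fold was taken. A dimmer probe set of Col5a2, below log2 4 on all lymphomas, did overlap. It spanned 2.69 to 3.68 against 2.54 to 2.96, a difference of 0.32. Col5a1, the other common type V chain, was at 6.39, 5.80, 5.50, 6.37, 4.33 and 4.27 on the collagen-high arrays in the same order, and between 3.39 and 3.77 on the collagen-low arrays. Its sides did not overlap either, as it was above log2 4 on all 6 collagen-high arrays and on no collagen-low array, and the collagen-low values lay close to the 3.14 to 3.21 of wild type cells. The difference was 1.90 log2 (1.13 to 2.67), at least 2.72-fold, with an adjusted p of 0.232. A dimmer probe set of Col5a1 spanned 3.41 to 5.24 against 2.88 to 3.80, with overlap and a difference of 0.90. Another, below log2 4 on all lymphomas, differed by 0.23. Col5a3 differed by 0.03 log2 (-0.47 to 0.53).

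Col1a1, the partner chain of Col1a2 in type I collagen, was read by a pair of probe sets that gave differences of unequal size. On the brighter one over all arrays, collagen-high arrays spanned 4.72 to 6.69 and collagen-low arrays 4.32 to 5.05, close to the 4.58 to 4.62 of wild type cells. That probe set differed by 1.18 log2 (0.60 to 1.77, adjusted p = 0.439), and 1 array overlapped. The other spanned 5.91 to 9.30 against 3.93 to 5.58 with no overlap, a difference of 2.91 log2. Further probe sets of the ordering genes differed by 2.51 for Col1a2, 1.08 for Col3a1 and 1.62 for Sparc. They read the same transcripts that chose the sides, so their direction follows from the ordering and adds no separate evidence. That of Col3a1 was dim, with means of 3.62 and 2.54 log2.

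The network-forming and microfibrillar collagens had higher means as well. Col4a1, a type IV chain of basement membranes, lay between 8.49 and 9.17 with a median of 8.77 on the collagen-high arrays and between 6.15 and 8.68 with a median of 7.71 on the collagen-low arrays. The difference was 1.22 log2 (0.51 to 1.92), and that of its partner Col4a2 was 1.30 (0.58 to 2.02). The second probe set of Col4a1 gave a smaller difference of 0.65, at 6.41 to 7.51 against 6.05 to 7.57, and no collagen-high array was above its collagen-low range. Col6a2, a chain of the beaded microfibrils of type VI collagen, had the lowest p of all genes (4.27e-05 unadjusted, 0.209 adjusted). It spanned 4.90 to 5.20 against 4.35 to 4.58 with no overlap, a difference of 0.58 (0.37 to 0.79). Among the other type VI chains, Col6a3 differed by 1.02 (0.33 to 1.72) and Col6a1 by 0.43 (0.06 to 0.80). Col16a1 differed by 0.14 (-0.15 to 0.43).

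Enzymes and chaperones of collagen assembly did not follow the collagens as a group. Of 8 tested, 4 had the higher mean and 4 the lower, and the median difference was 0.11 log2. Of the 8, 2 had an unadjusted p under 0.05, both higher, beside 4.27% of all genes. The clearest was Serpinh1, the collagen-specific chaperone of the endoplasmic reticulum, which spanned 5.53 to 6.40 against 3.91 to 5.72, a difference of 1.05 (0.47 to 1.64). The other was P4ha1, a subunit of prolyl hydroxylase, at 0.48 (0.02 to 0.95). The general folding enzymes P4hb and Ppib, which B cells also use for immunoglobulin, had the highest levels in the list. P4hb differed by -0.15 (-0.43 to 0.13) and Ppib by -0.12 (-0.42 to 0.19).

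Of 7 matrix glycoproteins tested, 5 had the higher mean, beside 55.2% of all genes, and 4 had an unadjusted p under 0.05 with higher values, beside 4.27%. The median difference was 0.80 log2. Of the 4, Mgp, Postn and Sparcl1 passed the filter only through collagen-high arrays, and without the filter 8 of the 24 on the array had an unadjusted p under 0.05, all with the higher mean. Mgp, an inhibitor of calcification, was at 5.35, 7.92, 6.22, 6.26, 4.39 and 2.93 on collagen-high replicates 1, 11, 5, 12, 2 and 6, and at 2.48 to 3.93 on the collagen-low arrays. Only replicate 6 fell within the collagen-low range. The difference was 2.54 (1.12 to 3.96), at least 2.85-fold. Fn1, fibronectin, had a median of 6.98 against 5.81 and differed by 1.18 (0.24 to 2.12). Postn, a matricellular protein of remodelling tissue, differed by 1.31 (0.23 to 2.39), and Sparcl1, a relative of Sparc, by 0.80 (0.21 to 1.39). Tgfbi, a collagen-binding protein that macrophages also make, went the other way at -1.04 (-2.80 to 0.72), with 3.78 on replicate 11 and 8.46 on replicate 6 of the same side.

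The small leucine-rich proteoglycans Bgn and Dcn, relatives that both bind collagen fibrils, differed in opposite directions. Bgn, biglycan, was at 7.28 to 8.47 with a median of 7.84 on the collagen-high arrays and at 6.10 to 7.56 with a median of 6.66 on the collagen-low arrays. The difference was 1.12 log2 (0.53 to 1.72), 2.18-fold, with an adjusted p of 0.537, and the remaining pair of its probe sets gave 1.20 and 0.94. Dcn, decorin, was at 7.16, 6.33, 5.72, 6.80, 6.09 and 6.42 on collagen-high replicates 1, 11, 5, 12, 2 and 6, and at 6.86 to 7.56 on the collagen-low arrays. Only replicate 1 reached into the collagen-low range. The difference was -0.80 (-1.28 to -0.32), 1.74-fold lower, with an adjusted p of 0.578. Both genes were low in wild type cells, Bgn at 2.42 to 3.51 and Dcn at 2.49 to 2.55. Srgn, the proteoglycan of blood cell granules, had the highest level of the 4 proteoglycans tested and differed by -0.68 (-1.54 to 0.17). The list median was -0.20, with 1 gene at an unadjusted p under 0.05 in each direction, beside 4.27% of all genes higher and 2.36% lower.

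Basement membrane components other than collagen, matrix proteases and the TGF-beta pathway held fewer differences. All 4 basement membrane genes tested had the higher mean, beside 55.2% of all genes, with a median of 0.22. Nid1, a laminin-binding linker, differed by 0.68 (0.01 to 1.35). Among 4 proteases and inhibitors the median was 0.44. Serpinf1, a secreted inhibitor of vessel growth that passed the filter only through collagen-high arrays, differed by 1.29 (0.17 to 2.40), whereas Mmp14, a membrane collagenase, differed by -0.39 (-1.73 to 0.94) and Timp2 by 0.25 (-0.31 to 0.81). TGF-beta signalling is the best known inducer of collagen genes. Its 12 tested genes had a median of -0.09. Of the 12, 3 had an unadjusted p under 0.05, all higher, beside 4.27% of all genes. These 3 were downstream or secreted members. Fstl1, a secreted glycoprotein, had a median of 6.31 against 5.17 and differed by 1.52 (0.51 to 2.54). Ccn2, a TGF-beta target, was at 2.90 to 5.79 against 2.67 to 3.40 and differed by 1.41 (0.57 to 2.26). It passed the filter only through 4 collagen-high arrays. The ligand Tgfb1 differed by -0.27 (-0.92 to 0.38) and the receptor Tgfbr2 by -0.07 (-0.51 to 0.37).

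**Figure D2:**
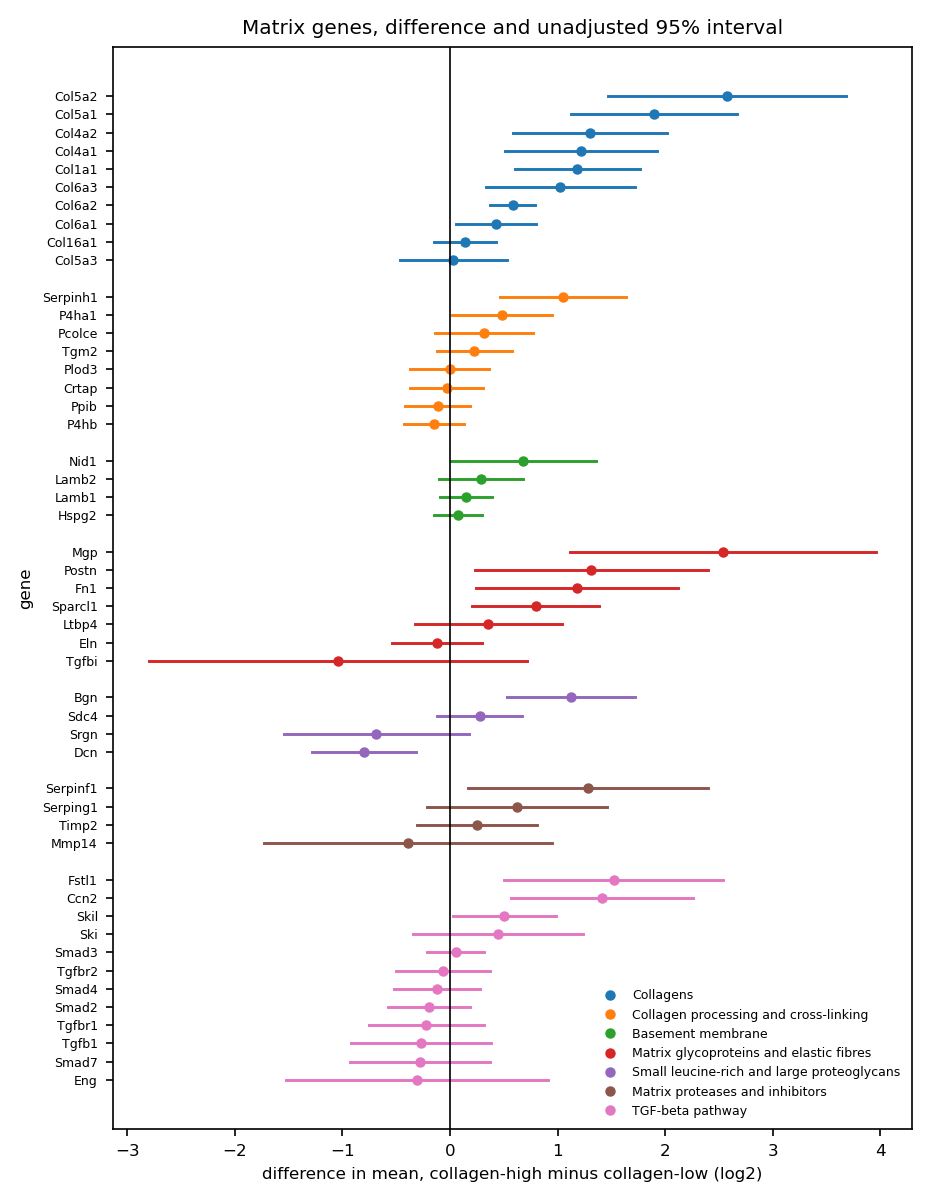
Difference in mean log2 intensity, collagen-high minus collagen-low (horizontal axis), for each tested matrix gene (vertical axis, grouped and coloured by list), with bars for the unadjusted 95% interval over 6 and 6 arrays. The 10 collagens have a median of 1.10, and Bgn (1.12) and Dcn (-0.80) lie on opposite sides of the zero line.

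Markers of the cells that make matrix differed in both directions. Fibroblasts were represented by 3 tested genes, all with lower means on the collagen-high side and a median of -0.42. Of these, 1 had an unadjusted p under 0.05, beside 2.36% of all genes in that direction. That was Gsn, an actin-severing protein that fibroblasts and other cells express, at 4.99 to 6.74 with a median of 6.26 against 6.18 to 7.85 with a median of 6.69. Its difference was -0.85 (-1.62 to -0.08). Wild type B cells held Gsn at 7.04 to 8.08, so it is not a fibroblast transcript alone. Igfbp4, a binding protein for insulin-like growth factors, was at 2.52 to 3.00 in wild type cells and differed by -0.39 (-2.02 to 1.25) between the sides. Without the filter, 3 of the 28 fibroblast markers had an unadjusted p under 0.05 with the higher mean and 1 with the lower. Some markers below the filter, chosen after their values were seen, were detected on collagen-high arrays only. The other markers below the filter are not given by side here. Pdgfrb, a growth factor receptor of fibroblasts and pericytes, exceeded log2 4 on replicates 11, 5 and 12, at 4.86, 5.28 and 5.19, and on no collagen-low array. Thy1, a surface protein of fibroblasts and T cells, was above log2 4 on replicates 1, 12 and 6, at 5.09, 4.40 and 4.14. Their means differed by 0.95 for Pdgfrb and 0.85 for Thy1. Fbln2, a matrix glycoprotein of the matrix lists, was above it on replicates 1, 11 and 5, at 6.64, 4.66 and 4.13, and 5 of 6 collagen-high arrays were above its highest collagen-low value of 2.23.

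Vessel markers were nearly level. The 7 endothelial genes tested had a median difference of 0.02 log2, and 0 had an unadjusted p under 0.05. Plvap, a protein of fenestrated endothelium, was at 5.54 to 6.77 against 4.93 to 7.02 and differed by -0.03 (-0.71 to 0.65). Pecam1, which B cells also express, differed by -0.52 (-1.28 to 0.25). The 5 smooth muscle and pericyte genes all had slightly higher means, beside 55.2% of all genes. Their median was 0.25, and 0 had an unadjusted p under 0.05. Rgs5, a pericyte gene, was at 6.90 to 8.96 against 6.60 to 8.10, and differed by 0.25 (-0.48 to 0.98). Acta2, smooth muscle actin, differed by 0.25 (-0.77 to 1.27). The intervals allow differences of the size seen for Bgn in Acta2 but not in Plvap or Rgs5.

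The chemokines of lymphoid reticular stroma had lower means where the collagens were high. All 4 tested genes of the lymphoid reticular stroma list, Cxcl13, Cxcl12, Vcam1 and Cr2, had lower means, with a median of -0.90. Cr2 is also in the list of mature B cell genes, and its difference was the smallest of the 4, at -0.14. Of the 4, 2 had an unadjusted p under 0.05, beside 2.36% of all genes in that direction. Without the filter the number was 1. Cxcl13, which draws B cells into follicles, was at 2.75, 2.79, 2.66, 2.80, 3.12 and 7.57 on collagen-high replicates 1, 11, 5, 12, 2 and 6. It was at 6.90, 8.93, 6.10, 6.11, 8.57 and 4.05 on collagen-low replicates 10, 7, 8, 4, 3 and 13. On 5 of the 6 collagen-high arrays and on the middle array (2.88) it was at the level of wild type cells, 2.78 to 2.94, and on all 6 collagen-low arrays it was above. The difference was -3.16 (-5.24 to -1.08), at least 6.85-fold lower, with an adjusted p of 0.578. Cxcl13 passed the filter only through the collagen-low arrays. It was called in 1 setting, within the arrays without salivary transcript, at -3.75 (adjusted p = 0.0447 by limma, 0.0960 to 0.999 in the other settings). That setting leaves out replicates 6 and 13, the exceptions of both sides, so it does not add to the pattern. Within the arrays with salivary transcript, described below, the difference was -2.44. Cxcl12, which retains B cells in bone marrow and lymphoid tissue, had a median of 6.05 against 7.73 and differed by -1.27 (-2.48 to -0.06). Its dimmer probe set gave 0.23, at levels mostly below log2 4. Vcam1, an adhesion molecule of stroma and macrophages, differed by -0.53 (-1.30 to 0.25).

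Aplnr, the apelin receptor, a G protein-coupled receptor of endothelium, showed the largest difference among the 5 genes with the lowest p. It was at 6.66, 5.37, 6.73, 5.12, 6.37 and 5.13 on collagen-high replicates 1, 11, 5, 12, 2 and 6, and at 5.23, 2.26, 3.16, 2.32, 2.28 and 2.31 on collagen-low replicates 10, 7, 8, 4, 3 and 13. All 6 collagen-high arrays and 1 collagen-low array had it above log2 4, and wild type cells held it at 2.36 to 2.43. The difference was 2.97 (1.86 to 4.08), at least 3.72-fold, with an adjusted p of 0.209. It passed the filter only through the collagen-high arrays. Without replicate 10, the single collagen-low array above log2 4, it was 3.43 (adjusted p = 0.00286 by limma). That array was the exception itself, and leaving out any other single array gave no call. The difference was 3.76 among the arrays with salivary transcript and 1.54 among the others. The dimmer probe set of Aplnr gave 0.47, with means near log2 3 on both sides. The endothelial list, which did not include Aplnr, showed no such difference.

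**Figure D3:**
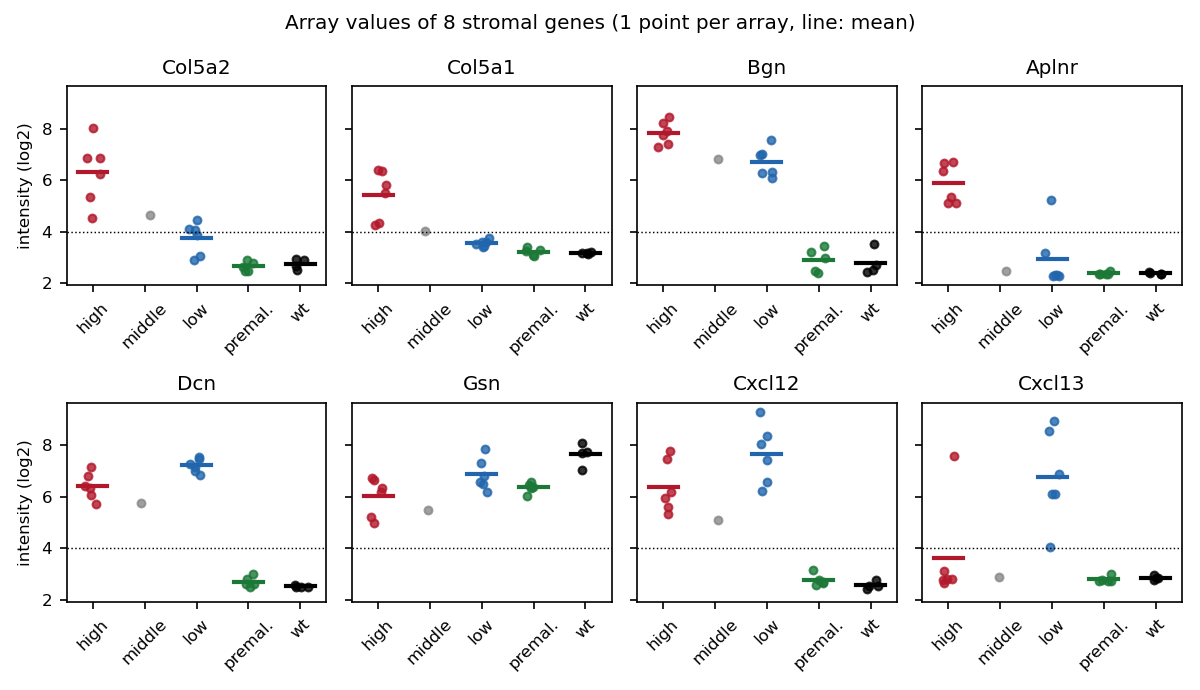
Log2 intensity (vertical axis) of Col5a2, Col5a1, Bgn, Aplnr, Dcn, Gsn, Cxcl12 and Cxcl13 on each array, by collagen-high, middle, collagen-low, premalignant and wild type arrays (horizontal axis), with a line at the mean of each group of more than 1 array and a dotted line at log2 4. On the probe sets shown, Col5a2 and Col5a1 do not overlap between the sides. Cxcl13 is at 2.66 to 3.12 on 5 of 6 collagen-high arrays and at 4.05 to 8.93 on the collagen-low arrays.

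Transcripts of other tissues differed between single arrays. Salivary gland transcripts, marked by Bpifa2 above log2 4, were present on 3 of 6 collagen-high arrays, 4 of 6 collagen-low arrays and 0 of the 9 wild type and premalignant arrays. Bpifa2 reached 12.24 on collagen-high replicate 6 and 12.79 on collagen-low replicate 4. The mean level of the 6 tested salivary genes was 2.46 to 9.51 on the collagen-high side, 2.45 to 10.10 on the collagen-low side and 2.59 to 2.74 on wild type arrays. With this split as a block, Col5a2 differed by 2.47 and Col5a1 by 1.81. Skeletal muscle transcripts were found on a pair of collagen-high arrays. Acta1, skeletal muscle actin, was at 8.46 on replicate 2 and 6.46 on replicate 1, and at 2.86 to 3.22 on all collagen-low arrays, and Ckm, muscle creatine kinase, was at 8.41 on replicate 2. Adipoq, made by fat cells, was at 7.12 on collagen-low replicate 8 alone. The part of muscle or fat tissue in the other differences was not tested.

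Neutrophil transcripts had lower means on the collagen-high side, and macrophage transcripts were nearly level. All 5 tested neutrophil genes had lower means with a median of -2.17, and 3 had an unadjusted p under 0.05, beside 2.36% of all genes, but 0 of the 12 on the array did in the fit without the filter. S100a8, a calcium-binding protein of neutrophils, was at 5.89, 2.79, 2.96, 9.60, 5.58 and 6.70 on collagen-high replicates 1, 11, 5, 12, 2 and 6, and at 5.77 to 11.09 on the collagen-low arrays. The sides overlapped broadly, and the difference was -2.81 (-5.42 to -0.19). It was -1.10 without replicates 1, 5 and 11, the 3 arrays with the highest averages. Of 18 macrophage genes, 13 had lower means, whereas 55.2% of all genes had the higher mean, and the median was -0.11. Of the 18, 1 had an unadjusted p under 0.05, with the lower mean, beside 2.36% of all genes. Lyz2, lysozyme, differed by -0.41 (-1.64 to 0.81) and C1qa, a complement component, by -0.39 (-1.15 to 0.37). Mrc1 is the mannose receptor of tissue macrophages and sinus endothelium. It was at 7.60, 7.04, 6.92 and 6.77 on collagen-high replicates 1, 12, 5 and 11, but at 3.90 on replicate 6 of that side. On collagen-low replicate 13 it was at 6.85, above replicate 11, and the difference between the sides was 0.86 (-0.48 to 2.19). Mast cell markers, 7 in all, were below log2 4 on all lymphomas.

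Means of B cell genes were mostly lower on the collagen-high side, and the largest differences rested on few arrays. Of 14 mature B cell genes, 11 had lower means with a median of -0.22, whereas 55.2% of all genes had the higher mean. The 14 include 3 that were below log2 4 on all lymphomas. Of the 14, 2 had an unadjusted p under 0.05, both lower, beside 2.36% of all genes in that direction. Ltb, lymphotoxin beta, which B cells use to instruct lymphoid stroma, was at 2.31, 2.72, 2.36, 3.95, 3.72 and 6.45 on collagen-high replicates 1, 11, 5, 12, 2 and 6, and at 4.37 to 6.05 on the collagen-low arrays. Only replicate 6, the collagen-high array that also held Cxcl13, was not below the collagen-low range. The difference was -1.74 (-3.09 to -0.39), at least 2.51-fold lower, and -0.62 without replicates 1, 5 and 11. Both sides were far below the wild type cells, at 10.91 to 11.43. Cd22, an inhibitory receptor of B cells, differed by -0.79 (-1.51 to -0.07). Of 8 MHC class II genes, 7 had lower means with a median of -1.18. Of the 8, 1 had an unadjusted p under 0.05, beside the same 2.36%, against 0 without the filter. Cd74, the invariant chain, was at 4.84 on replicate 1 and 7.47 on replicate 5, and at 10.79 to 11.96 on the other collagen-high arrays, against 9.27 to 12.67 on the collagen-low arrays. Its difference of -1.83 (-4.26 to 0.59) became -0.30 without replicates 1, 5 and 11. Replicate 1 also held the precursor B cell genes Igll1 at 12.22 and Vpreb1 at 10.62, parts of the surrogate light chain, which were near background on replicate 5, at 3.67 and 2.32.

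Differences in proliferation genes were small, and Myc was level. Of 24 DNA replication genes, 21 had the higher mean, beside 55.2% of all genes, and 5 had an unadjusted p under 0.05, all higher, beside 4.27%. The median was 0.22 log2, against 0.03 over all genes. Cdc6, which loads the replicative helicase, had a median of 7.67 against 6.71 and differed by 0.69 (0.18 to 1.20). Pcna and Mcm3, the brightest of the list, differed by -0.02 (-0.38 to 0.34) and 0.11 (-0.19 to 0.41). Of 23 mitosis genes, 20 had the higher mean, beside the same 55.2%, with a median of 0.09, and 0 had an unadjusted p under 0.05. Ribosome biogenesis genes, a classical target class of Myc, had a median of 0.06 over 29 genes. Of the 29, 2 had an unadjusted p under 0.05, both higher, beside 4.27% of all genes. Myc itself was at 8.85 to 10.76 against 8.67 to 10.40 and differed by -0.02 (-0.75 to 0.71, adjusted p = 0.992). The sign of so small a difference changed with the setting, up to 0.24 with 4 arrays a side. The 13 p53 target genes had a median of 0.09 and the 15 interferon response genes a median of 0.02. Of 15 AP-1 and immediate early genes tested, 9 had the higher mean and 6 the lower, with a median difference of 0.03. In each direction 1 had an unadjusted p under 0.05, beside 4.27% of all genes higher and 2.36% lower. The lower one was Egr1, an immediate early transcription factor. It had a median of 4.44 against 7.31 and differed by -2.21 (-3.85 to -0.58). Fos and Jun, of the same list, were below log2 4 on both sides.

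Receptors for matrix were mostly level. Of 12 tested, 9 had the higher mean, beside 55.2% of all genes, with a median of 0.18. Only 1 had an unadjusted p under 0.05, with the higher mean, beside 4.27% of all genes. Itga6, the alpha chain of a laminin receptor, was at 6.14 to 7.86 against 5.64 to 7.20 and differed by 0.84 (0.11 to 1.56). Only collagen-low replicate 13 lay within the collagen-high range. Cd44, the hyaluronan receptor, and Itgb1, the common integrin beta chain, differed by 0.41 (-0.15 to 0.98) and 0.27 (-0.39 to 0.93).

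**Figure D4:**
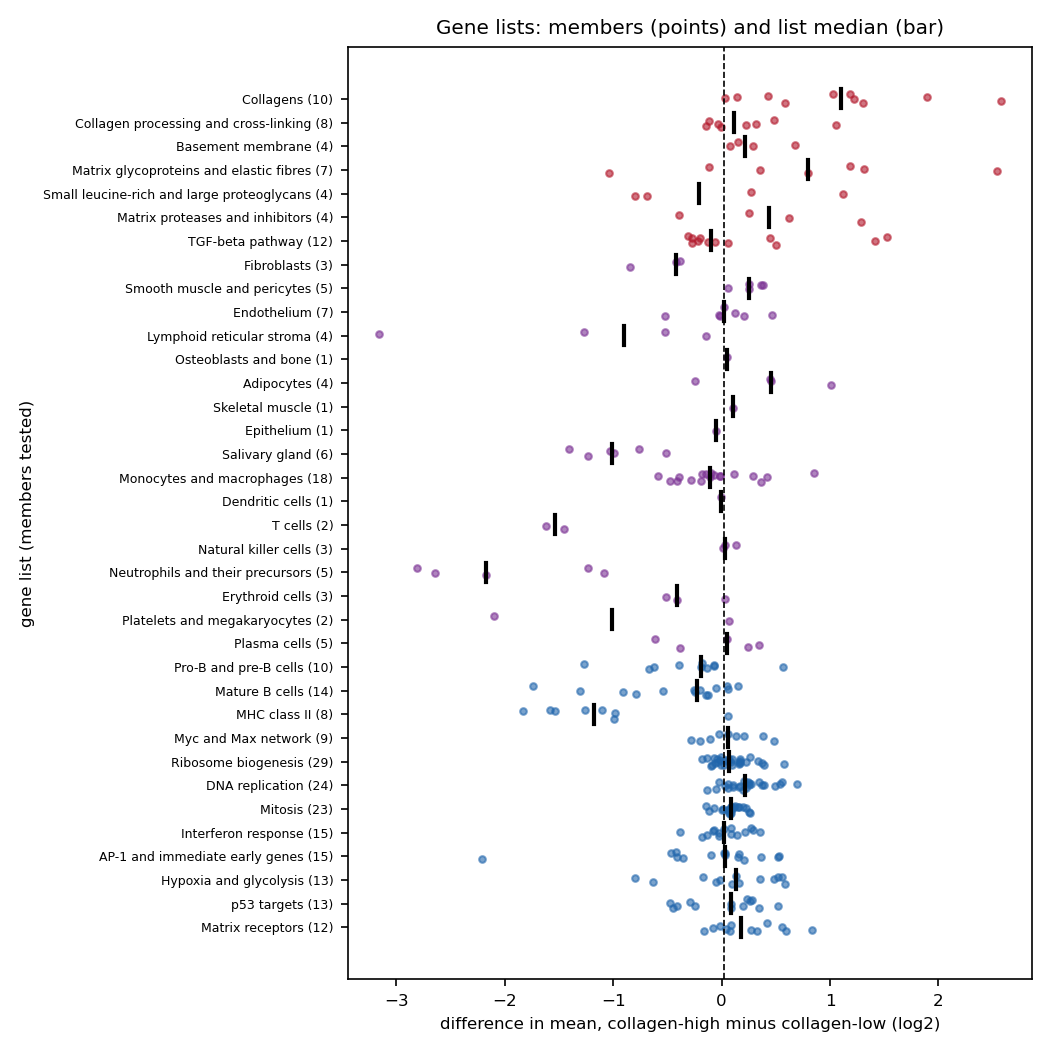
Difference in mean log2 intensity, collagen-high minus collagen-low (horizontal axis), for each tested member (points) of each gene list (vertical axis, number tested in brackets), with a bar at the list median and a dashed line at the median of all genes, 0.03. Collagens (median 1.10) lie to the right, and neutrophils (-2.17) and MHC class II (-1.18) to the left.

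A few genes outside the lists had low p values and sides that did not overlap. Slc25a30, a mitochondrial carrier, was at 4.66 to 5.08 against 4.21 to 4.50 and differed by 0.59 (0.36 to 0.82, adjusted p = 0.209). Ptcd3, a protein of the mitochondrial ribosome, was at 7.76 to 8.22 against 7.00 to 7.56 and differed by 0.58 (0.31 to 0.84). Both differences were small beside those of the type V collagens but were as regular across arrays. Trim44 was at 6.35 to 7.45 against 7.48 to 8.17 and differed by -0.96 (-1.42 to -0.51), the largest lower difference among the 4 genes whose sides did not overlap in that direction. Itih5, a secreted protein that binds hyaluronan, overlapped by 1 array and differed by -1.62 (-2.36 to -0.89). It passed the filter only through the collagen-low arrays, so that a lower mean on the collagen-high side was favoured. It was at 3.35 to 3.76 in wild type cells, so the collagen-low side was the one that departed from them.

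The lymphomas form a graded series, and a fit along the average of the ordering genes over all 13 arrays used that grading. With limma, 10 genes rose along it (0.155% of 6434) and 11 fell (0.171%) at an adjusted p of 0.05, against 0 in the comparison of sides. Slopes are in log2 per log2 unit of the average. By slope, those that rose were Col5a2 at 1.21 (adjusted p = 3.41e-06), Aplnr at 1.19, Mgp at 1.11, Col5a1 at 0.83 (adjusted p = 0.0012), Inpp5a at 0.66, Col1a1 at 0.54, Bgn at 0.53, Igf2r at 0.49, Sparcl1 at 0.43 and Ppt1 at 0.24. Inpp5a encodes an inositol phosphatase, Igf2r the mannose-6-phosphate receptor and Ppt1 a lysosomal thioesterase. Aplnr, Mgp, Col5a1, Inpp5a and Sparcl1 had passed the filter only through collagen-high arrays, so that a rise in them was favoured, and Col5a2, Col1a1, Bgn, Igf2r and Ppt1 had not. Col5a2, Col5a1, Col1a1 and Bgn passed in all 13 fits that left out 1 lymphoma, with slopes of 1.13 to 1.24, 0.77 to 0.90, 0.48 to 0.57 and 0.51 to 0.57. Inpp5a passed in 12 of 13, Aplnr in 7 and Mgp in 3.

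Among the 11 genes that fell along the average, the steepest was Cd52, a surface glycoprotein of lymphocytes. It had a slope of -1.16, and its values ran from 4.78 to 9.14 on the collagen-high side and from 8.25 to 10.57 on the collagen-low side. Btg1, an antiproliferative gene high in resting lymphocytes, had -0.76. Sipa1, a regulator of Rap signalling in lymphocytes, had -0.62 (adjusted p = 0.00493), and Relb, a subunit of the alternative NF-κB pathway, -0.46 (adjusted p = 0.00663). Sipa1 and Relb each passed in 12 of 13 fits without 1 lymphoma, Cd52 in 6 and Btg1 in 3. The remaining 7 were Trim34a (-0.63), Parp3 (-0.55), Limd2 (-0.52), Plekhg2 (-0.49), Shfl (-0.44), Trim44 (-0.41) and Cog8 (-0.33). Cd2 and Cd4, from the T cell list, had means that differed by -1.45 and -1.62. Their slopes of -0.85 and -0.76 did not pass with limma (adjusted p = 0.177 and 0.325). Cd2 was above log2 4 on all 9 wild type and premalignant B cell arrays, so it need not mark T cells here. Cd4 was above it on 0 of those 9, on 1 collagen-high array and on 3 collagen-low arrays. The number of genes that passed was 36 without replicate 11, 5 without replicate 1, 7 without replicate 5 and 10 without replicate 3 or replicate 13, against 21 with all arrays. All 5 genes that passed without replicate 1 were among the 21.

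**Figure D5:**
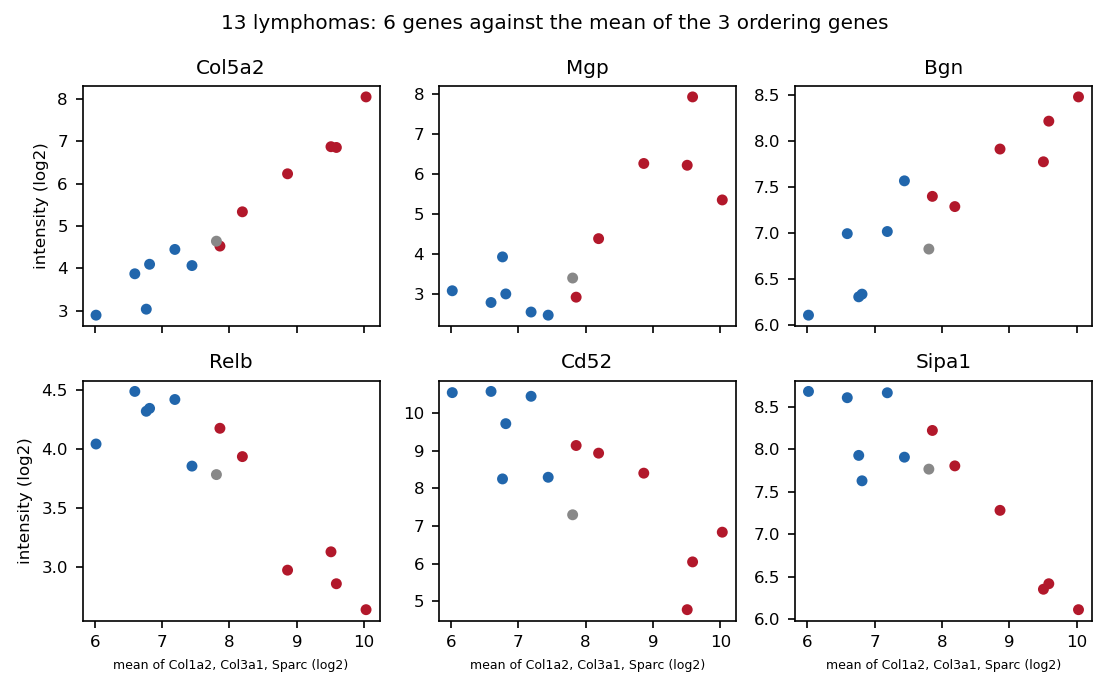
Log2 intensity (vertical axis) of Col5a2, Mgp, Bgn, Relb, Cd52 and Sipa1 in the 13 lymphomas against the average log2 of Col1a2, Col3a1 and Sparc (horizontal axis), coloured by collagen-high (red), middle (grey) and collagen-low (blue) side. Col5a2 has a slope of 1.21 and Bgn of 0.53, and Cd52 has a slope of -1.16.

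Array quality and sex of the mice were compared with the sides. The difference between 3′ and 5′ probe sets of beta-actin, a measure of RNA degradation, was 2.11 ± 0.32 log2 (SD, n = 6) on the collagen-high side and 1.81 ± 0.39 (n = 6) on the collagen-low side, a difference of 0.29 (exact two-sided permutation p = 0.167, 0.333 adjusted over 2 measures). That of Gapdh was 0.97 ± 0.31 (n = 6) and 0.94 ± 0.22 (n = 6), a difference of 0.03 (exact p = 0.868, adjusted 0.868). On the wild type and premalignant arrays the beta-actin measure was 0.58 to 0.86, and on the 13 lymphomas 1.29 to 2.49. The lymphomas thus also differed from those arrays in this measure, and its part in comparisons with them was not tested. The mean correlation of an array with the other lymphomas ran from 0.913 for replicate 1 to 0.941. Eif2s3y, a gene of the Y chromosome, was above log2 4 on 0 of 6 collagen-high arrays and 3 of 6 collagen-low arrays, replicates 10, 8 and 13, at 6.73, 7.03 and 7.25. Its part in the differences was not tested.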

How the data were processed

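The authors deposited GCRMA intensities on a linear scale, per the submitters' processing notes and the values. GCRMA removes background by probe sequence, brings arrays to one distribution and gives 1 value per probe set. Its version is not given here in any source used. Log2 was taken of the deposited intensities. Of 22690 probe sets, 20380 carried 1 gene symbol. Probe sets above log2 4 on at least 4 of 22 arrays were kept, and each gene was read through its brightest probe set. This left 6437 genes, or 6434 without the 3 that ordered the arrays. Sides of 6 and 6 arrays were compared with limma 3.58.1 (lmFit, eBayes, two-sided) in R 4.3.3, with Benjamini-Hochberg adjustment. The fit was tested on simulated data. Exact permutation tests used SciPy 1.17.1. The number of arrays, each of a separate mouse with lymphoma, limits the precision.

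The arrays, the 37 gene lists and the tests were chosen with earlier results of these data known. Genes were named by rule: the ordering genes, Myc, the 5 genes with the lowest p, genes called by any setting, and up to 2 bright members of a list. Others, among them Dcn, Mgp, Cxcl13, S100a8, Cd74, Egr1, Itih5 and Acta1, were chosen after their values were seen. Alternatives changed the filter, centring, weights, ordering, number of arrays and probe set rule. The split by salivary transcript, the fits without the 3 highest arrays and the fits along the average without 1 lymphoma were added after seeing the data. Promoter sequences came from RefSeq, and none was at hand for Col5a2, Col1a1 or Dcn.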

Additional observations from a re-analysis of the deposited data

Results flagged for a closer look

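In 7 of 146 sets of 6 arrays examined, the highest or lowest array stood apart from the other 5 by Dixon's test at its 95% critical value, which chance does in about 1 of 20. The level of Cxcl13 on collagen-high replicate 6 was 7.57 log2, against 2.66 to 3.12 on the other collagen-high arrays. Aplnr on collagen-low replicate 10 was at 5.23 log2, against 2.26 to 3.16. For Itga6, collagen-low replicate 13 was at 7.20 log2, against 5.64 to 5.86. Fstl1 was low on the same array, at 3.38 log2 against 4.94 to 5.58. Col6a3 on collagen-high replicate 12 was at 5.37 log2, against 4.18 to 4.49. Collagen-high replicate 5 stood above its side for Ptcd3, at 8.22 log2 against 7.76 to 7.93, and for Pola1, a subunit of DNA polymerase, at 7.49 log2 against 6.50 to 6.85. Replicates 6 and 10, which stood apart for Cxcl13 and Aplnr, were the arrays of their sides nearest to the border.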

How the results depend on the processing

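No paired analysis was possible because the sides hold different mice and the replicate numbers only name them. The comparison of sides called 0 genes with limma. It called 2 genes without the filter on dim probe sets (1 higher, Col6a2, and 1 lower, Marco), 7 in 1 fit over all 22 arrays (5 higher, 2 lower), 21 along the average over 13 arrays (10 higher, 11 lower), 1 with 5 arrays a side (1 higher, Aplnr), 5 with 4 arrays a side (4 higher, 1 lower), 1 within the arrays with salivary transcript (1 higher, Aplnr) and 2 within the arrays without it (2 lower, Cxcl13 and Eif2s3y). Leaving out 1 lymphoma gave 0 to 1 genes, with Aplnr called without replicate 10 and Col1a1 without replicate 2. The other settings tried gave 0, with 164 to 645 genes at an unadjusted p under 0.05. The fit over all 22 arrays also drew its spread from the wild type and premalignant arrays. For Col5a2, which it called, the SD was 0.21 and 0.18 log2 there, against 1.25 on the collagen-high and 0.63 on the collagen-low arrays. Its calls thus do not rest on variation among lymphomas alone. The difference in the Gapdh measure was -0.017 with arrays ordered without Sparc, and -0.065 to 0.101 without 1 lymphoma. Myc was 0.056 with spike centring, 0.14 along the average and with arrays ordered without Sparc, 0.13 with 5 and 0.24 with 4 arrays a side, 0.087 within the arrays without salivary transcript, and -0.26 to 0.14 without 1 lymphoma. Within the arrays with salivary transcript P4ha1 was -0.025 and Bpifa2 0.095. Within those without it H2-Eb1 was 0.36, H2-Aa 0.11, Bpifa2 0.011 and Smr3a 0.039, and Bpifa2 was 0.060 with the split as a block. Without replicates 1, 5 and 11, Tgfbi was 0.12 and Blk, a B cell kinase, 0.61. The cause of these changes was not tested. The 67 genes were followed through up to 30 alternatives and the fit along the average, and all their other differences kept their direction.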

Other observations

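Markers of mouse sex were not in the lists. Xist, the transcript of the inactive X chromosome, was at 9.96 to 11.41 log2 on 5 of 6 collagen-high arrays and 1.73 on replicate 5. On the collagen-low side it was at 10.05, 10.07 and 11.21 on replicates 7, 4 and 3, and at 2.69, 2.37 and 3.37 on replicates 10, 8 and 13, the arrays with Eif2s3y above log2 4. Collagen-high replicate 5 and the middle array, replicate 9, were low for both Xist, at 1.73 and 1.78, and Eif2s3y, at 2.93 and 3.31.

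Marco, a scavenger receptor of marginal zone macrophages that lay below the filter, did not overlap between the sides. It was at 2.39 to 3.08 log2 on the collagen-high arrays and at 3.42 to 4.16 on the collagen-low arrays, a difference of -1.23. Surrogate light chain transcripts of precursor B cells marked single tumours on both sides. Igll1 was at 12.22 on collagen-high replicate 1, and at 8.60 and 7.21 on collagen-low replicates 10 and 7.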
